A study of Mus musculus with 18 samples.

Results

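Genes that absorptive cells of the small intestine use to digest, take up and export nutrients were followed in mouse colon. Of 8 genes listed by symbol (*Alpi*, *Sis*, *Fabp1*, *Fabp2*, *Apoa1*, *Apoa4*, *Apob* and *Mttp*), 7 had counts among the 36757 genes of the count table, and *Apoa4* was not analysed here. The list was drawn up from their known role, with earlier results of these data known. RNA sequencing covered 18 libraries in 6 groups of 3. Colon tissue came from C57BL/6 mice with chronic colitis or colitis-associated cancer (CAC), and organoids were grown in matrigel from tumor-bearing intestinal pieces of the CAC model. Mice of both models were male and female and 6 to 8 weeks old at the start, and each model had a wild-type group, which carries the floxed allele RNF138fl/fl, and a group labelled RNF138-/-. The colitis mice drank 2% dextran sulfate sodium (DSS) for 7 days and plain water for 14 days, repeated this cycle and were killed 4 weeks after the last one. The CAC mice were injected with azoxymethane (AOM, 10 mg/kg) 4 days before the same kind of DSS cycles. How the floxed allele was deleted, and in which cells, is not given in the sources used here, and nothing says whether the 3 libraries of a group were 3 mice or separate cultures, so p-values measure the spread between these libraries. No group without DSS was among the libraries, so every level is that of a colon after DSS or of cultures from tumor-bearing pieces.

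Enterocytes of the small intestine finish the digestion of sugars and phosphate esters at the brush border, bind the fatty acids they take up, rebuild triglycerides and package them on apolipoproteins into chylomicrons. Colonocytes, the absorptive cells of the large intestine, mainly take up water, salt and short-chain fatty acids, and most of these nutrient genes are known to be lower in colon than in small intestine. Factors of the CDX and HNF4 families are known activators of enterocyte genes.

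The start regions of *Alpi*, *Sis*, *Fabp2* and *Apob* are given because these 4 members were called lower in CAC than in colitis among libraries labelled RNF138-/-. *Sis* was tested there through its colitis libraries, and *Alpi* had 0 CAC libraries labelled RNF138-/- over the minimum of the count filter. With no filter on low counts *Apoa1* and *Fabp1* were called as well. Each stretch is the 250 bases before the RefSeq start on GRCm38.p6, read in the direction of the gene, and capitals mark letters that match CAAAGTCCA or CAAAGGTCC, forms bound by HNF4 factors, or TTTATNG, a form bound by CDX factors, on either strand. No matches overlapped each other, and the motifs were picked after these sequences were read.
Alpi, chr1:87101607-87101856, minus strand: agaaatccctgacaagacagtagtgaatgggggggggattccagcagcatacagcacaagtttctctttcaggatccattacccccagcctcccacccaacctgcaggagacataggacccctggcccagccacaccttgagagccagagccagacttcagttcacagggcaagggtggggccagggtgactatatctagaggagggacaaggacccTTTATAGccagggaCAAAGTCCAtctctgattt
Sis, chr3:72967864-72968113, minus strand: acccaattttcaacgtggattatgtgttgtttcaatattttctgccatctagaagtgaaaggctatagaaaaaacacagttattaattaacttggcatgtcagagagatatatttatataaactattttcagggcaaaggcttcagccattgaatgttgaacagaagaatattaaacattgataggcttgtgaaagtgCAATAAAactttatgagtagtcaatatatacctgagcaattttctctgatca
Fabp2, chr3:122894822-122895071, plus strand: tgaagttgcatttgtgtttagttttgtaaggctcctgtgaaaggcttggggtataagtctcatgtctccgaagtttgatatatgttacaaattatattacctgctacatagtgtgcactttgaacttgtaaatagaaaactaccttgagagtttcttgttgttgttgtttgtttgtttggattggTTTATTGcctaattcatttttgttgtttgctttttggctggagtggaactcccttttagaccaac
Apob, chr12:7977427-7977676, plus strand: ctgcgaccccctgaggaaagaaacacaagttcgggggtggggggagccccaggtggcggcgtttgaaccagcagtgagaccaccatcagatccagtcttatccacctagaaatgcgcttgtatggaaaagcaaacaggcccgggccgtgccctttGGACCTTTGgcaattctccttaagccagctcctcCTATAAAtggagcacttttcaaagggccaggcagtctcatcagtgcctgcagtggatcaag
TTTATNG occurred in the window of 5 of the 8 listed genes, which are these 4 and *Fabp1*, against 9.81% of all 32851 RefSeq windows of this length. CAAAGTCCA was found in *Alpi* alone among the 8 and in 0.384% of all windows, and CAAAGGTCC in *Apob* alone and in 0.262%. The window of *Mttp* held none of the 3 motifs and 25 CG pairs, against 0 in *Alpi*, 1 in *Sis*, 1 in *Fabp2* and 7 in *Apob*, with a median of 6 over all windows. The windows of *Apob*, *Fabp1*, *Apoa1* and *Apoa4* reach past the start that GENCODE draws for the gene, and that of *Mttp* lies within its GENCODE gene model. The matches describe letters only and do not tell which factor, if any, binds there, and binding was not measured.

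The libraries held between 11514716 and 24390082 counts with a median of 17332367, and levels are given as CPM, the counts per 1000000 counts after TMM scaling over all 18 libraries. *Rnf138* itself, on chromosome 18, was not lower in libraries labelled RNF138-/- in any model. Its edgeR log2 fold change was -0.06 in colitis (adjusted p = 0.963), 0.72 in CAC (adjusted p = 0.0426) and -0.10 in organoids (adjusted p = 0.668), so the genotype is called by its label throughout and each direction between genotypes rests on labels for which this gene's counts show no loss. The epithelial markers (9 genes such as *Epcam* and *Cdh1*) were present in every library, with a summed level between 6255 and 19530 CPM. Of the *Hox* genes that mark the distal hindgut, 5 were summed, and they reached 27.9 to 430 CPM, with the lowest values in the colitis library labelled RNF138-/- replicate 3 (27.9 CPM) and the CAC RNF138fl/fl replicate 3 (32.0 CPM). These 2 libraries stood apart for several members as well, and called values of members that they move are given with and without them. The CAC RNF138fl/fl replicate 3 also had the lowest total count and the highest colonocyte markers (22286 CPM summed over 8 genes, against 4783 and 5467 CPM in the other CAC RNF138fl/fl libraries). In bulk RNA, fewer cells of a type and less RNA per cell cannot be told apart.

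Compared per kilobase of exon in the colitis RNF138fl/fl libraries, *Fabp2* had by far the highest mean level among the members (454 CPM per kb), followed by *Apob* (10.4) and *Alpi* (5.52). *Mttp* had 0.319 CPM per kb, *Fabp1* 0.251, *Sis* 0.0556 and *Apoa1* 0.0453. In organoids labelled RNF138fl/fl the order of the means per kb was different, with *Alpi* (1.84 CPM per kb) and *Mttp* (1.83) above *Apob* (0.504) and *Fabp2* (0.252). The places of *Alpi* and *Apob* rest on replicate 1, at 3.97 and 1.06 CPM per kb. In replicates 2 and 3 *Alpi* was at 0.956 and 0.577 and *Apob* at 0.166 and 0.291. In colitis tissue *Fabp2*, *Apob* and *Alpi* thus stood well above the other 4 members on this scale, and the plot of levels by library shows all 7.

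**Figure D1:**
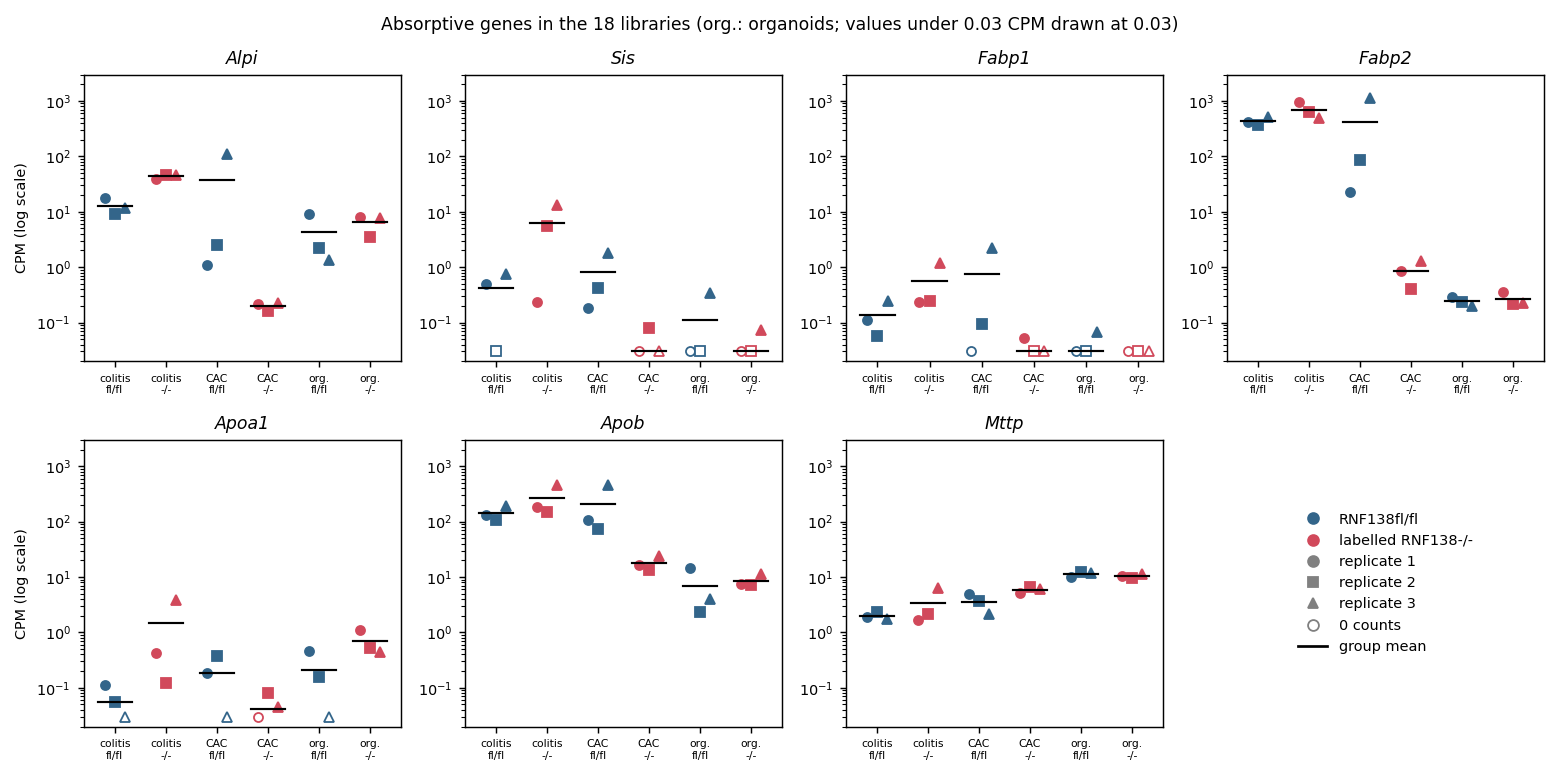
Level of each of the 7 absorptive genes in each of the 18 libraries, in CPM on a log axis. Points are libraries (blue RNF138fl/fl, red labelled RNF138-/-, shape for the replicate), open points have 0 counts, and bars are group means of 3. *Fabp2* spans 0.202 to 1127 CPM, while *Mttp* stays between 1.68 and 12.2 CPM and is highest in organoids.

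*Alpi* (ENSMUSG00000079440.2, chr1:87098002-87101606, minus strand, mm10) codes for intestinal alkaline phosphatase, which removes phosphate groups from nutrients and bacterial lipopolysaccharide at the brush border. In colitis it was at 17.8, 9.10 and 11.8 CPM in the RNF138fl/fl libraries and at 39.5, 45.5 and 45.4 CPM in those labelled RNF138-/-. Every library labelled RNF138-/- lay above every RNF138fl/fl library. In CAC the order was the opposite, with 1.11, 2.54 and 108 CPM in RNF138fl/fl and 0.213, 0.162 and 0.226 CPM in libraries labelled RNF138-/-. The groups did not overlap, but replicate 3 held most of the RNF138fl/fl signal, with 1141 of the group's 1213 counts, and the libraries labelled RNF138-/- had 4 or 5 counts each. In organoids the values were 9.29, 2.23 and 1.35 CPM in RNF138fl/fl and 8.14, 3.49 and 7.76 CPM in those labelled RNF138-/-, which overlapped. Of its 50-base windows, 2.4% also occur in other genes, mostly the related phosphatase gene *Akp3*. Reads that lie within such stretches cannot be assigned to it alone, and how they were counted is not given in the sources used here.

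*Sis* (ENSMUSG00000027790.14, chr3:72888557-72967863, minus strand) codes for sucrase-isomaltase, which splits sucrose and starch fragments. Its colitis levels were 0.503, 0 and 0.743 CPM in RNF138fl/fl and 0.239, 5.58 and 13.3 CPM in libraries labelled RNF138-/-. The 2 high libraries, with 93 and 257 counts, were replicates 2 and 3 labelled RNF138-/-, while replicate 1 had 4 counts and lay within the RNF138fl/fl range. In CAC it was at 0.185, 0.423 and 1.80 CPM in RNF138fl/fl, and the libraries labelled RNF138-/- had 0, 2 and 0 counts. The pooled CAC counts were 21.1 times higher in RNF138fl/fl (95% exact interval 5.38 to 182, counting error only). This rests on 2 counts on the other side and on RNF138fl/fl replicate 3, which held 19 of the group's 31 counts. In organoids only 6 counts were seen over the 6 libraries, 5 of them in RNF138fl/fl replicate 3.

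*Fabp2* (ENSMUSG00000023057.5, chr3:122895072-122899506, plus strand) codes for the intestinal fatty acid binding protein, which carries long-chain fatty acids in the enterocyte cytoplasm. It was the most abundant member in colitis, at 425, 369 and 519 CPM in RNF138fl/fl and 959, 619 and 492 CPM in libraries labelled RNF138-/-. These groups overlapped, since replicate 3 labelled RNF138-/- was under RNF138fl/fl replicate 3. In CAC it was at 22.8, 86.8 and 1127 CPM in RNF138fl/fl and at 0.851, 0.405 and 1.27 CPM in libraries labelled RNF138-/-. The groups were apart even at their nearest values, 22.8 and 1.27 CPM, and replicate 3 again stood far above the other RNF138fl/fl libraries. In organoids it was at 0.288, 0.239 and 0.202 CPM in RNF138fl/fl and 0.351, 0.212 and 0.224 CPM in those labelled RNF138-/-, that is 3 to 5 counts in each library. An antisense transcript overlaps the gene, and whether the counting used strand is not given in the sources used here.

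*Fabp1* (ENSMUSG00000054422.7, chr6:71199827-71205023, plus strand) codes for the liver-type fatty acid binding protein, which liver and small intestine share. It was close to absent in all colon libraries. Its counts in colitis were 2, 1 and 4 in RNF138fl/fl and 4, 4 and 23 in libraries labelled RNF138-/-. In CAC they were 0, 2 and 23 in RNF138fl/fl and 1, 0 and 0 in libraries labelled RNF138-/-, and the organoids held 1 count over all 6 libraries. Both libraries with 23 counts, at 1.19 and 2.18 CPM, were those with the lowest distal *Hox* sums. At this depth a difference between genotypes was not detectable outside them.

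*Apob* (ENSMUSG00000020609.14, chr12:7977648-8016835, plus strand) codes for apolipoprotein B, the structural protein of chylomicrons. In colitis it was at 134, 106 and 195 CPM in RNF138fl/fl and 183, 152 and 463 CPM in libraries labelled RNF138-/-, with overlap. In CAC it was at 107, 74.0 and 452 CPM in RNF138fl/fl and 16.2, 13.2 and 24.1 CPM in libraries labelled RNF138-/-. All 3 RNF138fl/fl libraries lay above all 3 of the other label, and again replicate 3 was the highest. In organoids *Apob* was at 14.7, 2.31 and 4.05 CPM in RNF138fl/fl and 7.58, 7.09 and 11.1 CPM in those labelled RNF138-/-, which overlapped.

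*Apoa1* (ENSMUSG00000032083.8, chr9:46228580-46230466, plus strand) codes for apolipoprotein A-I, the main protein of high-density lipoprotein, made by liver and small intestine. It had 2, 1 and 0 counts in colitis RNF138fl/fl and 7, 2 and 75 counts in libraries labelled RNF138-/-. The pooled ratio of 27.5 (95% exact interval 9.1 to 136) came from replicate 3 labelled RNF138-/-, which held 75 of the 84 counts. CAC libraries had 3, 8 and 0 counts in RNF138fl/fl and 0, 2 and 1 in those labelled RNF138-/-. Organoids had 8, 2 and 0 counts in RNF138fl/fl and 16, 10 and 6 in those labelled RNF138-/-, where 16 counts correspond to 1.12 CPM.

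*Mttp* (ENSMUSG00000028158.14, chr3:138089854-138144968, minus strand) codes for the microsomal triglyceride transfer protein, which loads lipid onto apolipoprotein B. In colitis it was at 1.90, 2.30 and 1.73 CPM in RNF138fl/fl and 1.68, 2.16 and 6.24 CPM in libraries labelled RNF138-/-. Only replicate 3 labelled RNF138-/- lay above the RNF138fl/fl range. In CAC it was at 4.86, 3.62 and 2.18 CPM in RNF138fl/fl and 5.21, 6.52 and 6.02 CPM in libraries labelled RNF138-/-, so that here the libraries labelled RNF138-/- were all higher and RNF138fl/fl replicate 3, the highest for *Alpi*, *Fabp2* and *Apob*, was the lowest. Organoids had 9.92, 12.2 and 11.9 CPM in RNF138fl/fl and 10.6, 9.58 and 11.2 CPM in those labelled RNF138-/-, with overlap and little spread. Its gene model overlaps *Trmt10a* and an antisense gene on the other strand, so reads of these could count toward it if strand was not used.

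The first comparison asked how libraries labelled RNF138-/- differed from RNF138fl/fl in colitis. *Alpi*, *Fabp2*, *Apob* and *Mttp* were over the minimum of the count filter in all 6 libraries, and the median of their log2 fold changes was 0.83, against 0.02 over all genes tested. *Sis* was tested as well but was over that minimum in 2 libraries labelled RNF138-/- and 1 RNF138fl/fl library, so its value is a description. Of these 5 members 0 passed an adjusted p of 0.05 and a fold change of 2 (edgeR), where 0.0902% of 16623 genes were called in either direction. An unadjusted edgeR p under 0.05 was reached by 3 of the 5 and by 10.4% of all genes, and DESeq2 called 1 of the 5 and 2.06% of all genes. *Alpi* came nearest, at 43.5 ± 3.45 CPM (SD, n = 3) against 12.9 ± 4.43, which edgeR fitted as 1.75 on the log2 scale with an SE of 0.27 and an adjusted p of 0.0693. With DESeq2 its adjusted p was 1.63e-06, it was also called by edgeR without replicate 3 labelled RNF138-/- (adjusted p = 0.038), and over all alternatives its adjusted p ran from 1.63e-06 to 0.576 with the same direction. *Sis* had a log2 fold change of 3.95 (adjusted p = 0.345), *Apob* 0.88 (adjusted p = 0.549), *Mttp* 0.77 (adjusted p = 0.677) and *Fabp2* 0.65 (adjusted p = 0.467), all by edgeR. Without replicate 3 labelled RNF138-/-, *Apob* dropped to 0.19, *Mttp* to -0.06 and *Sis* to 2.79, while *Alpi* was at 1.71 and *Fabp2* at 0.84.

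The marker lists of the colitis libraries were set beside these values. Colonocyte markers summed to 7384 to 10269 CPM in RNF138fl/fl and 10808 to 11342 CPM in libraries labelled RNF138-/-, with 4 of 8 genes fitted higher, 4 lower and 0 called by edgeR (2 at an unadjusted p under 0.05, 2 called by DESeq2). Paneth cell markers (9 genes, among them lysozyme *Lyz1* and defensins of the small intestine) summed to 18.7 to 28.3 CPM in RNF138fl/fl, to 2683 and 2835 CPM in replicates 1 and 2 labelled RNF138-/-, and to 41.1 CPM in replicate 3. Most of this sum was *Ang4*, an antimicrobial angiogenin (19.3 CPM on average in RNF138fl/fl and 1771 CPM in libraries labelled RNF138-/-), 0 of the 4 tested markers were called by edgeR (3 at an unadjusted p under 0.05, 2 by DESeq2), and the mean of *Defa30*, *Defa22* and *Defa17* was 0 in both colitis groups. The distal *Hox* genes summed to 169 to 252 CPM in RNF138fl/fl and to 127, 46.9 and 27.9 CPM in libraries labelled RNF138-/-, so that all 3 of the latter were lower, with 0 of 4 tested genes called by edgeR (2 at an unadjusted p under 0.05, 1 called higher by DESeq2). The ileal bile acid transporter gene *Slc10a2* was at 0.539 to 139 CPM in libraries labelled RNF138-/- and at 1.01 to 3.84 CPM in RNF138fl/fl. The part of these lists in the *Alpi* and *Sis* values was not tested.

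In CAC the called members were lower in libraries labelled RNF138-/-. *Fabp2* fell by 9.01 on the log2 scale in libraries labelled RNF138-/- (SE 1.81, edgeR, adjusted p = 0.0426), from 412 ± 620 to 0.841 ± 0.431 CPM (SD, n = 3). *Apob* fell by 3.63 (SE 0.76, edgeR, adjusted p = 0.046), from 211 ± 209 to 17.8 ± 5.64 CPM. *Alpi* had a log2 fold change of -7.57 (SE 2.11) and missed the threshold (edgeR, adjusted p = 0.0708), and *Mttp* was at 0.68 (adjusted p = 0.185). Of 17752 genes 5.37% were called and 4.83% were called lower. *Apob* and *Mttp* were over the minimum of the count filter in all 6 libraries, with a median of -1.48 against 0.01 over all genes tested, and 1 of the 2 was called. *Alpi* and *Fabp2* passed the filter through the RNF138fl/fl libraries, with 0 and 2 libraries labelled RNF138-/- over the minimum, so their values describe genes that had to be higher in RNF138fl/fl to be tested. *Sis*, *Fabp1* and *Apoa1* were under the count filter here. Exact permutation tests (two-sided) on the CPM of *Alpi*, *Sis*, *Fabp2*, *Apob* and *Mttp* each gave p = 0.1, the smallest that 3 libraries against 3 allow. How many of all genes reach this value was not counted, and 33.8% of all genes had an unadjusted edgeR p under 0.05.

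**Figure D2:**
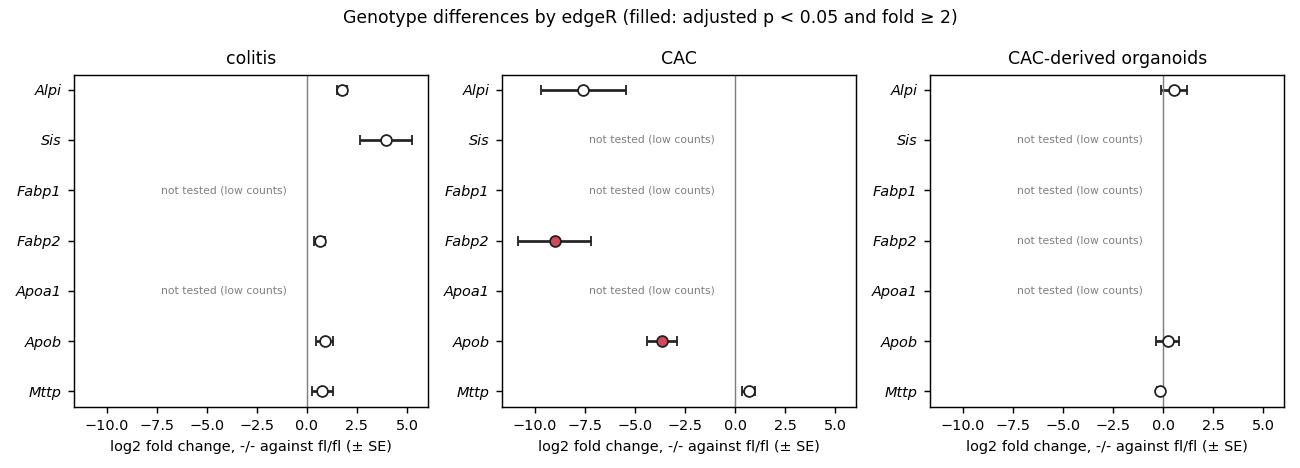
Fitted log2 fold change of each tested member, libraries labelled RNF138-/- against RNF138fl/fl, in each model (points, edgeR; bars, SE). Filled points pass an adjusted p of 0.05 and a fold change of 2. All 5 points in colitis lie to the right of 0, *Alpi*, *Fabp2* and *Apob* lie far to the left in CAC, and the 3 tested in organoids lie near 0.

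The calls in CAC did not rest on RNF138fl/fl replicate 3. Without it, *Fabp2* fell by 6.07 (adjusted p = 0.0124) and *Apob* by 2.37 (adjusted p = 0.0128), both called by edgeR. *Alpi* fell by 3.20 (edgeR, adjusted p = 0.0217) and passed as well. Its libraries labelled RNF138-/- held 4 or 5 counts each, so this value is a description. The share of all genes called in this fit is not given here. The sizes were smaller, since this library is the highest for all 3. Leaving out any of the other 5 libraries ended calls. Without RNF138fl/fl replicate 1 *Apob* was at an adjusted p of 0.0614, and without replicate 2 *Fabp2* was at 0.0502. Without replicate 1, 2 or 3 labelled RNF138-/-, 0 members were called, with adjusted p of 0.125, 0.164 and 0.111 for *Fabp2* and 0.127, 0.168 and 0.108 for *Apob* (edgeR). In the same fits the calls over all genes were 0, 0 and 109, while the fold changes of *Fabp2* stayed between -9.42 and -8.64.

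**Figure D3:**
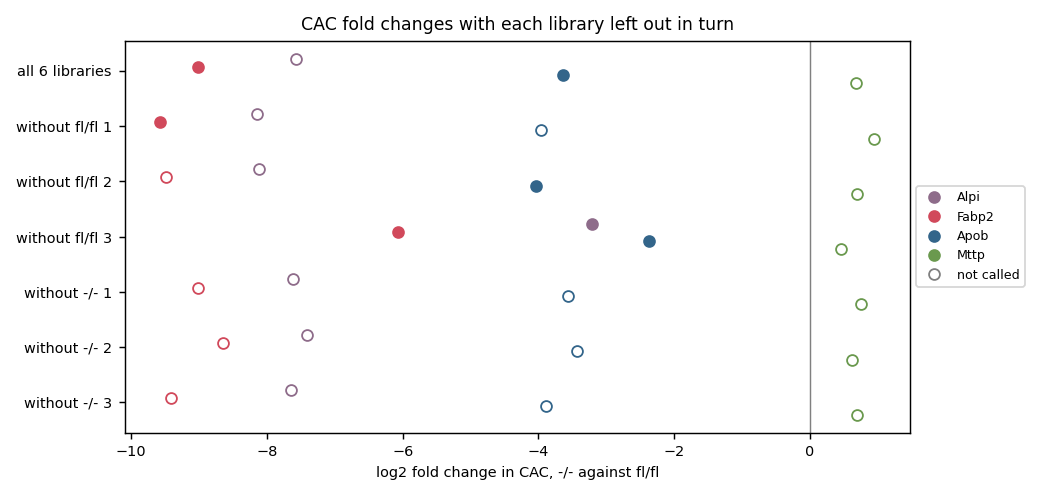
Log2 fold change in CAC (labelled RNF138-/- against RNF138fl/fl) of *Alpi*, *Fabp2*, *Apob* and *Mttp* with all 6 libraries and with each left out in turn. Filled points are called by edgeR. *Alpi*, *Fabp2* and *Apob* are below 0 in all 7 fits, nearest to 0 without RNF138fl/fl replicate 3, and *Mttp* is above 0 in all 7.

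Other cell type markers moved with the CAC genotype groups too. Colonocyte markers summed to 4783 to 22286 CPM in RNF138fl/fl and 896 to 1917 CPM in libraries labelled RNF138-/-, and 4 of 8 were called lower (*Aqp8*, *Car4*, *Guca2a* and *Slc26a2*, all also without RNF138fl/fl replicate 3), beside 4.83% of all genes. Epithelial markers as a whole summed to 10515 to 19530 against 8002 to 9817 CPM, with 0 of 9 called by edgeR (5 at an unadjusted p under 0.05, which 33.8% of all genes reached, and 3 called lower by DESeq2). All 5 smooth muscle markers were called lower, from 2145 to 6920 CPM summed in RNF138fl/fl to 102 to 203 CPM in libraries labelled RNF138-/-. Of the adipocyte markers 2 were tested and both were called lower, *Cfd* and *Adipoq*, with list sums of 10.0 to 63.4 CPM in RNF138fl/fl and 0.0810 to 0.106 CPM in libraries labelled RNF138-/-. Paneth cell markers were higher in sum, from 1188 to 2193 CPM to 3833 to 6117 CPM. *Defa30* and *Mmp7* were called higher by edgeR, beside 0.546% of all genes, and 7 were called higher and 1 lower by DESeq2. Without RNF138fl/fl replicate 3 edgeR called 6 of the 9 higher, in a fit whose share of all genes called is not given here. *Ang4* had the opposite direction to the sum, with means of 1009 CPM in RNF138fl/fl and 196 CPM in libraries labelled RNF138-/- (edgeR, adjusted p = 0.167). Scaled to 1000 CPM of epithelial markers, *Fabp2* was at 1.51, 8.26 and 57.7 CPM in RNF138fl/fl and 0.0867, 0.0506 and 0.144 CPM in libraries labelled RNF138-/-. On the same scale *Apob* was at 7.10, 7.04 and 23.2 CPM against 1.65, 1.65 and 2.73 CPM. For both genes the groups stayed apart on this scale, which uses the epithelial list only. No scaling to the colonocyte markers, which were lower too, was made. The part of the colonocyte, muscle and fat cell levels in these differences was not tested.

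**Figure D4:**
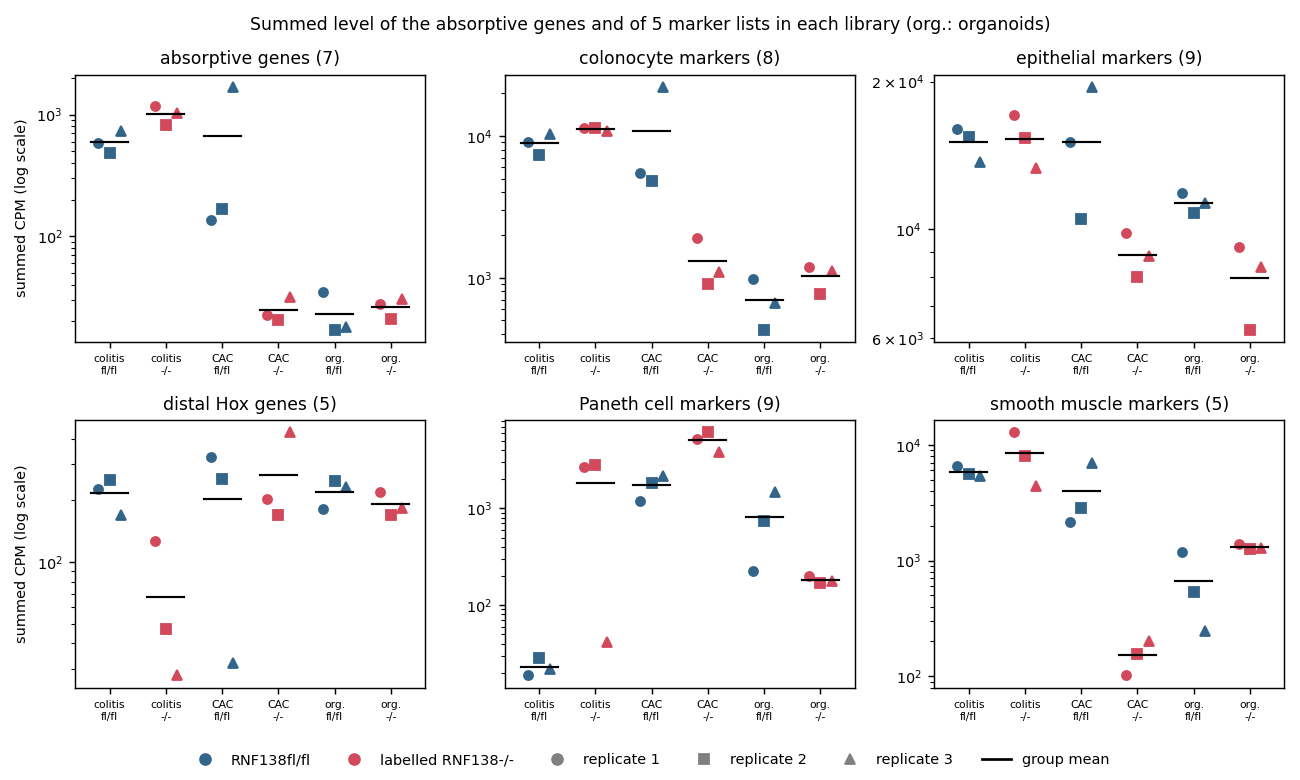
Summed CPM (log axis) of the 7 absorptive genes and of 5 marker lists in each library, with points as in the plot of single genes and bars for group means. The absorptive genes and the colonocyte markers have their highest library in common, CAC RNF138fl/fl replicate 3 (1693 and 22286 CPM), which is also the lowest CAC library for distal *Hox* genes (32.0 CPM).

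Further genes of fat uptake and export were followed from a list of 21, of which 18 were tested. In CAC edgeR called 2 lower and 0 higher, with a median of -0.42, beside 4.83% of all genes called lower. These were *Tm6sf2*, needed to lipidate secreted lipoproteins (-2.45, 10.7 to 2.04 CPM), and *Cideb*, which acts in the same step (-1.99, 11.3 to 2.95 CPM). Without RNF138fl/fl replicate 3 *Tm6sf2* was at -1.74 and still called, and *Cideb* was at -1.65 and was not (edgeR, adjusted p = 0.0621). DESeq2 called 4 lower and 3 higher of these 18, and 10.7% of all genes lower and 3.14% higher. Of 25 further genes of the brush border and its transporters, 20 were tested, 2 were called lower by edgeR (10 by DESeq2) and 18 had a negative value, with a median of -2.23. The retinol binding protein gene *Rbp2* fell by 3.35 on the log2 scale (17.2 to 1.74 CPM, edgeR, adjusted p = 0.031), and the other was the amino acid transporter gene *Slc6a19*, under 5 CPM in both groups. Of 17 transcription factors of intestinal identity, 16 were tested and 4 called lower by edgeR (9 lower and 1 higher by DESeq2), among them *Cdx2* (-3.95, 125 to 8.45 CPM), *Klf4* (-2.64) and *Cdx1* (-1.28). *Cdx2*, a regulator of hindgut identity, was at 42.5, 91.0 and 240 CPM in the 3 RNF138fl/fl libraries. Without replicate 3 it was at -3.02 (adjusted p = 0.0364), *Klf4* at -2.04 (0.03) and *Cdx1* at -1.12 (0.0236), all still called by edgeR. The 3 lists then had 1, 6 and 3 genes called lower, in a fit whose share of all genes called is not given here. In colitis 0 genes of these 3 lists were called by edgeR, with 3 of 18, 8 of 20 and 5 of 16 at an unadjusted p under 0.05, beside 10.4% of all genes, and DESeq2 called 0, 3 and 3, beside 2.06%.

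In organoids none of the 3 tested members (*Alpi*, *Apob* and *Mttp*) was called by edgeR or DESeq2, where edgeR called 15% of 15294 genes, and 0 had an unadjusted edgeR p under 0.05, where 47.4% of all genes did. *Alpi* had a log2 fold change of 0.53, *Apob* 0.24 and *Mttp* -0.15, with a median of 0.24 against -0.04 over all genes. Without RNF138fl/fl replicate 1, which had the highest *Alpi* and *Apob* of its group, both were called higher in organoids labelled RNF138-/-. *Alpi* was then at 1.83 (adjusted p = 0.0137) and *Apob* at 1.40 (adjusted p = 0.00956, edgeR), in a fit whose share of all genes called is not given here. *Fabp2* was under the count filter. Fibroblast markers summed to 8982 to 23065 CPM in RNF138fl/fl organoids and 40199 to 49437 CPM in those labelled RNF138-/-, with all 5 called higher, beside epithelial sums of 10813 to 11880 and 6255 to 9218 CPM. Paneth cell markers summed to 224 to 1490 CPM in RNF138fl/fl organoids and 170 to 199 CPM in those labelled RNF138-/-, with 8 of 9 called lower (9 without RNF138fl/fl replicate 1). Leukocyte markers summed to 4.47 to 8.37 CPM and 77.9 to 121 CPM, and both of the 2 tested were called higher. Of all genes 7.94% were called higher and 7.04% lower. The part of these lists in the member values was not tested. Among 16 other fat-handling genes tested 1 was called, the cholesterol uptake gene *Npc1l1*, which was lower and under 5 CPM in both groups. Among 17 brush border genes tested 3 were called higher (*Ace*, *Enpep* and *Folh1*) and 2 lower (*Cubn* and *Naaladl1*), the largest being *Ace*, the angiotensin-converting enzyme (2.28, 87.4 to 434 CPM).

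The genotype difference was then compared between models as an interaction in 1 fit of all 18 libraries. *Fabp2*, *Alpi* and *Apob* had a difference that depended on whether the tissue was CAC or colitis (edgeR, adjusted p under 0.05), where 14.1% of 19390 genes had one. The CAC effect minus the colitis effect was -9.59 for *Fabp2* (adjusted p = 0.00083), -9.24 for *Alpi* (adjusted p = 0.00555) and -4.44 for *Apob* (adjusted p = 0.00799). For *Mttp* it was -0.04 (edgeR, adjusted p = 0.975). *Alpi* had 0 CAC libraries labelled RNF138-/- over the minimum of this fit's filter, at 4 or 5 counts each. It was tested through groups where it is higher, so its values in both interactions are descriptions. *Sis* was over the minimum of this fit's filter in 2 colitis libraries labelled RNF138-/-, 1 colitis RNF138fl/fl and 1 CAC RNF138fl/fl library, so it was tested through the groups where it is high, and its value of -8.26 (adjusted p = 0.0156) is a description. Without CAC RNF138fl/fl replicate 3 the values were -6.69 for *Fabp2*, -4.93 for *Alpi* and -3.22 for *Apob*, all still called, and -7.04 for *Sis*, whose adjusted p was then 0.0577. With colitis replicate 3 labelled RNF138-/- left out as well, the first 3 remained called (edgeR, adjusted p = 1.5e-05, 0.00673 and 0.0264). The CAC minus colitis effect was also called negative for all 8 colonocyte, all 5 smooth muscle and the 4 adipocyte markers tested, beside 9.88% of all genes. Of 9 epithelial markers 2 were called negative. The organoid effect minus the CAC effect was 9.01 for *Fabp2* (adjusted p = 0.0174), 8.05 for *Alpi* (adjusted p = 0.00619) and 3.83 for *Apob* (adjusted p = 0.0103), with 23.3% of genes called. Without CAC RNF138fl/fl replicate 3 these were 6.11 for *Fabp2*, 3.74 for *Alpi* and 2.61 for *Apob*, still called (adjusted p = 0.00247, 0.0129 and 0.031). *Sis* (2.28, edgeR, adjusted p = 0.758) and *Mttp* (-0.84, adjusted p = 0.275) were not called. The organoid minus CAC effect was also called positive for all 8 colonocyte and all 5 smooth muscle markers, beside 13.1% of all genes. It was called negative for 8 of 9 Paneth cell markers, beside 10.2%. The part of these cell types in the 2 interactions was not tested. The *Fabp2* value here sets organoid libraries of 3 to 5 counts against CAC tissue, with 0 of the 6 organoid libraries over the minimum of the filter, so it is a description, and both interactions use the same CAC libraries.

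Across models, the libraries labelled RNF138-/- of CAC were compared with those of colitis. Here *Fabp2*, *Alpi* and *Apob* were called lower in CAC than in colitis, where 19.6% of 19390 genes were called lower and 17.5% higher. *Fabp2* fell by 9.68 (690 ± 241 to 0.841 ± 0.431 CPM, SD, n = 3), *Alpi* by 7.72 (43.5 ± 3.45 to 0.200 ± 0.0339 CPM) and *Apob* by 3.90 (266 ± 171 to 17.8 ± 5.64 CPM), with edgeR adjusted p of 1.6e-05, 0.000557 and 0.00035. *Sis* fell by 7.42 (edgeR, adjusted p = 0.000989), against 2 counts over the 3 CAC libraries, and had passed the filter through its colitis libraries. *Alpi* had 0 of these CAC libraries over the minimum of the filter, at 4 or 5 counts each, so its value is a description too. Without colitis replicate 3 labelled RNF138-/-, *Sis* was at -6.33 (adjusted p = 0.0033) and *Apob* at -3.30 (adjusted p = 0.00105), both still called by edgeR. *Mttp* went the other way, at 0.81 (adjusted p = 0.0846), and passed at 1.56 without colitis replicate 3 labelled RNF138-/- (adjusted p = 0.000655). The pooled *Fabp1* counts were 38.5 times higher in colitis (95% exact interval 6.42 to 1570, 31 against 1 count) and *Apoa1* had 84 counts against 3, mostly from colitis replicate 3. All 8 colonocyte markers and all 5 smooth muscle markers were called lower as well, as were the 4 adipocyte markers tested and 3 of 9 epithelial markers. Without colitis replicate 3 labelled RNF138-/-, 2 of the 4 adipocyte markers were called lower. Of the 9 Paneth cell markers 7 were called higher and 1 lower, *Ang4* (1771 to 196 CPM). Whether any of this came with the model or with libraries made at another time cannot be told apart.

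In RNF138fl/fl libraries 0 of 5 members were called between CAC and colitis by edgeR or DESeq2, where edgeR called 13.6% of genes. An unadjusted edgeR p under 0.05 was reached by 1 of the 5 and by 6557 of 19390 genes. *Fabp2* had a log2 fold change of -0.09 (412 ± 620 against 438 ± 75.9 CPM), *Alpi* 1.52, *Sis* 0.84, *Mttp* 0.85 and *Apob* 0.54. This rested on CAC replicate 3. Without it *Fabp2* was lower in CAC by edgeR (-2.99, adjusted p = 0.000328), as was *Alpi* (-2.80, adjusted p = 0.00663), *Apob* was at -0.68 (adjusted p = 0.418) and *Sis* at -0.38 (adjusted p = 0.872). *Mttp* was then at 1.09 (edgeR, adjusted p = 0.0662). It was called higher in CAC with colitis replicate 3 labelled RNF138-/- also left out, a library that enters this fit only through the shared spread (adjusted p = 0.00434). With all libraries, all 9 Paneth cell markers and 3 of the 4 adipocyte markers tested were called higher in CAC, beside 9.78% of all genes. Of 8 colonocyte and 5 smooth muscle markers 0 were called.

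Organoids were compared with the CAC tissue of the same label. In RNF138fl/fl, *Fabp2* was lower in organoids, with a log2 fold change of -10.67 (0.243 ± 0.0431 against 412 ± 620 CPM, SD, n = 3, edgeR, adjusted p = 7.56e-06), and so was *Apob* at -4.89 (7.02 ± 6.71 against 211 ± 209 CPM, adjusted p = 5.81e-05). *Alpi* was at -3.08 (adjusted p = 0.0269), and without CAC replicate 3 its value turned to 1.23 (adjusted p = 0.111). *Mttp* was higher by 1.66 (11.3 ± 1.24 against 3.55 ± 1.34 CPM, adjusted p = 0.00173). Without that library *Fabp2* was at -7.77 (adjusted p = 1.36e-07), *Apob* at -3.66 (adjusted p = 0.000115) and *Mttp* at 1.41 (adjusted p = 0.00911), all still called by edgeR. Thus 3 of 5 were called lower and 1 higher, where 26.8% of genes were called lower and 17.5% higher and the median gene was at -0.14. In libraries labelled RNF138-/- the only member called was *Alpi*, which was higher in organoids by 4.97 (6.47 ± 2.58 against 0.200 ± 0.0339 CPM, edgeR, adjusted p = 0.00837), where 17.9% of genes were called higher and the median gene was at -0.22. For *Alpi* 0 CAC libraries of this label were over the minimum of the filter, so its value is a description. *Fabp2* was at -1.66 (edgeR, adjusted p = 0.326), *Apob* at -1.05 (adjusted p = 0.187), *Mttp* at 0.82 (adjusted p = 0.0711) and *Sis* at -0.36 (adjusted p = 0.919). *Apoa1*, not tested, had 32 counts in organoids labelled RNF138-/- against 3 in the CAC tissue, a ratio of 15 (95% exact interval 4.7 to 76.7). In the RNF138fl/fl comparison all 8 colonocyte markers were called lower in organoids (4783 to 22286 CPM summed in tissue, 431 to 985 CPM in organoids), as were 4 of 5 smooth muscle, all 5 leukocyte and the 4 adipocyte markers tested, and 4 of 5 fibroblast markers were called higher. In libraries labelled RNF138-/- 2 of 8 colonocyte, all 5 leukocyte and all 9 Paneth cell markers were called lower in organoids, and 3 of 5 smooth muscle and all 5 fibroblast markers higher. The part of these cell types in the member values was not tested. Hepatocyte markers summed to 261 to 2018 CPM in organoids and 60.4 to 157 CPM in CAC tissue, in organoids mostly from *Alb*. The fibrinogen gene *Fgb* was at 0 in CAC tissue and at a mean of 0.318 and 1.51 CPM in organoids. Of the 6 hepatocyte markers tested, 2 were called higher and 3 lower in organoids in RNF138fl/fl. In libraries labelled RNF138-/- 2 hepatocyte markers were called higher and 4 lower, where 26.5% of all genes were called lower. Their part in the *Apoa1* counts was not tested.

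Ordered by group mean, *Fabp2* was highest in colitis labelled RNF138-/- (690 CPM), colitis RNF138fl/fl (438) and CAC RNF138fl/fl (412), whose libraries overlapped, and then dropped to CAC labelled RNF138-/- (0.841) and both organoid groups (0.262 and 0.243), which overlapped each other. The CAC RNF138fl/fl mean rests on replicate 3, since replicates 1 and 2 were at 22.8 and 86.8 CPM, under all colitis libraries. *Apob* kept nearly that order, from 266 CPM in colitis labelled RNF138-/- to 7.02 CPM in RNF138fl/fl organoids, with overlap among the top 3 groups, between the organoid groups, and between CAC labelled RNF138-/- and RNF138fl/fl organoids, whose replicate 1 was at 14.7 CPM. *Alpi* differed in its last place, which was CAC labelled RNF138-/- (0.200 CPM), under both organoid groups (6.47 and 4.29 CPM). Its mean in CAC RNF138fl/fl (37.2 CPM) rests on replicate 3, as the other 2 libraries, at 1.11 and 2.54 CPM, lay under both organoid means. The RNF138fl/fl organoid mean in turn rests on replicate 1, at 9.29 CPM against 2.23 and 1.35 CPM in the others. *Mttp* ran the other way, from organoids (11.3 and 10.5 CPM, overlapping) through CAC labelled RNF138-/- (5.92 CPM) to CAC RNF138fl/fl, colitis labelled RNF138-/- and colitis RNF138fl/fl (3.55, 3.36 and 1.98 CPM, neighbours overlapping).

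Within the 12 tissue libraries the log2 CPM of *Alpi* and *Fabp2* had a Pearson r of 0.94, and after removing group means r was 0.94. *Fabp2* and *Apob* had r = 0.93 (0.67 within groups), *Sis* and *Fabp2* 0.55 (0.22 within groups), and *Fabp2* and *Mttp* -0.79 (-0.62 within groups). The libraries share depth and cell makeup, and CAC RNF138fl/fl replicate 3 is far from its group in most of these genes. The non-member genes most like the mean of the 5 tested members over these 12 libraries were *Naaladl1* (r = 0.973), *Car14* (0.97), *Cyp4b1* (0.969), *Agtr1a* (0.967) and *Gm11437* (0.964). *Naaladl1*, a brush border peptidase gene, was at 61.5 CPM in colitis replicate 3 labelled RNF138-/- and 34.1 CPM in CAC RNF138fl/fl replicate 3, against 0.851 to 2.04 CPM in CAC labelled RNF138-/-. Over the 6 organoid libraries and 3 members, the most alike included *2010003K11Rik* (0.981), *Sox4* (0.971), *Gm5160* (0.968) and *Slc5a8* (0.964), of which *Gm5160* had 0 or 1 count in each organoid library.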

How the data were processed

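Tissue RNA of both models and RNA of CAC-derived organoids was sequenced. The authors deposited 1 table of whole-number read counts per gene, not normalized, for 18 libraries. A second deposited table, of the authors' own log2 fold changes and p-values, was not used. The submitters' processing notes name STAR 2.6.1d, HTSeq 0.11.2, DESeq2 and mm10, the methods name mm10, Cufflinks and Gencode v.M8, and the strand setting is not given in the sources used here. Libraries were grouped by their titles. Counts were fitted with edgeR 4.0.16 (R 4.3.3; TMM, filterByExpr, quasi-likelihood tests, Benjamini-Hochberg adjustment over all genes tested). Each genotype comparison used its own 6 libraries, and contrasts across models used all 18. Calls needed an adjusted p below 0.05 together with a change of 2-fold or more, the study's thresholds, and interactions the adjusted p alone. CPM use TMM factors of the 18 libraries, and correlations add 0.5 CPM before the log2. The fitting code was tested on simulated data. Ratios of pooled low counts carry 95% exact intervals, which cover counting error only. Coordinates and exon lengths come from GENCODE M21, promoters from RefSeq (GRCm38.p6), where all 8 symbols matched. Named genes are all members, *Rnf138*, at most 4 called genes of each other list and comparison with the largest change and a mean of at least 5 CPM, and the 5 genes most alike. *Slc6a19*, *Npc1l1*, *Naaladl1* in organoids, *Slc10a2*, *Ang4*, *Alb*, *Fgb* and the defensins fall outside this rule in the comparisons that name them and were chosen after their values were seen. Members and lists were chosen with earlier results of these data known. Alternatives were RLE or total-count scaling, no filter, DESeq2 1.42.0, a replicate block, other sets of samples and each library left out, and, chosen after seeing the data, list genes without a library that stands apart. Some genes that this rule names are not reported here.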

Additional observations from a re-analysis of the deposited data

Results flagged for a closer look

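The genotype difference of *Fabp2*, *Alpi* and *Apob* was not the same in CAC as in colitis, by an interaction test in edgeR over all 18 libraries. The same test called all 8 colonocyte, all 5 smooth muscle and the 4 adipocyte markers tested, and 14.1% of all genes. The CAC effect minus the colitis effect, on the log2 scale, was -9.59 for *Fabp2*, -9.24 for *Alpi* and -4.44 for *Apob*, with *Fabp2* and *Apob* called lower in CAC by edgeR, and in colitis no member called by edgeR and *Alpi* called by DESeq2. *Alpi* had 0 CAC libraries labelled RNF138-/- over the minimum of the filter on low counts, so its value is a description. Without CAC RNF138fl/fl replicate 3 the values were -6.69, -4.93 and -3.22. *Sis* was at -8.26, but it passed the filter on low counts mainly through the colitis libraries where it is high, so its value is a description, and without that library it was at -7.04 (edgeR, adjusted p = 0.0577).

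The genotype difference of *Alpi* and *Apob* also differed between CAC tissue and the organoids grown from it. So did that of all 8 colonocyte, all 5 smooth muscle and 8 of 9 Paneth cell markers, where 23.3% of all genes were called. The *Alpi* value is a description here too, for the same reason. The organoid effect minus the CAC effect was 8.05 for *Alpi* and 3.83 for *Apob*, by the same test, and 3.74 and 2.61 without CAC RNF138fl/fl replicate 3. *Fabp2* was at 9.01 (6.11 without that library), but 0 of 6 organoid libraries were over the minimum of the filter, with 3 to 5 counts each, so the value is a description, and its call was lost in a fit of 12 libraries (edgeR, adjusted p = 0.0636). Both sets of values use the CAC libraries of both labels, and in CAC RNF138fl/fl replicate 3 held the highest count of each of these genes. No group had 4 or more libraries, so single libraries were not screened for their distance from their group.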

How the results depend on the processing

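Over 42 results of single members, 586 values came from other settings. Of these, 531 kept direction and side of the threshold, 17 passed it anew, 16 lost it and 22 turned direction. The counts of called members that moved by over 1.5 times were these. In the colitis genotype comparison (0 called) there were 3 with no filter on low counts (*Alpi*, *Sis* and *Apoa1*, which enters only then), 1 with DESeq2, and 0 to 1 with 1 library left out. With 1 library left out the count ran from 0 to 3 in CAC, 0 to 2 in organoids and 0 to 2 between CAC and colitis RNF138fl/fl, where leaving out both libraries that stand apart, a choice made after seeing the data, gave 3. In organoids against CAC labelled RNF138-/- (1 called) there were 2 with total counts only, 2 with no filter, 0 with DESeq2, which gave *Alpi* no adjusted p, and 1 to 2 with 1 library left out. The second gene was *Apob* with total counts and *Apoa1* in the others. Leaving out a library loosens the filter, so such counts can hold members not tested otherwise. With no filter *Apoa1* and *Fabp1* were also called in CAC against colitis labelled RNF138-/- (6 in place of 4) and in the CAC minus colitis effect (6 in place of 4), and *Fabp1* in organoids against CAC RNF138fl/fl (5 in place of 4).

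Values that turned direction, with the range when 1 library was left out, were these. In colitis *Mttp* ran from -0.056 to 1.09, and among organoids *Apob* from -0.16 (-0.05 without RNF138fl/fl replicate 3) to 1.40. Between CAC and colitis RNF138fl/fl, *Alpi* ran from -2.80 to 2.06, *Apob* from -0.68 to 0.91, *Fabp2* from -2.99 to 0.44 (also 0.04 and 0.36) and *Sis* from -0.38 to 1.51, and with both libraries out *Alpi* was at -2.80, *Apob* at -0.68 and *Sis* at -0.39. In organoids against CAC, *Alpi* ran from -4.37 to 1.23 in RNF138fl/fl (1.23 with both out) and *Sis* from -2.37 to 1.96 in libraries labelled RNF138-/- (also 0.06 and 0.23). The CAC minus colitis effect of *Mttp* ran from -0.36 to 0.74 (also 0.18 and 0.04), and was 0.13 with total counts and 0.53 with both out. The *Alpi* call in organoids against CAC RNF138fl/fl was lost in a fit of 12 libraries (adjusted p = 0.0595) and without organoid RNF138fl/fl replicate 2 (0.0895) or 3 (0.0873), and that of the organoid minus CAC effect of *Fabp2* in a fit of 12 libraries (0.0636) and without organoid replicate 1 labelled RNF138-/- (0.0643). The cause was not tested.

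With a replicate block, 1 member was called in colitis (*Alpi*, adjusted p = 0.0413), 2 in CAC and 0 in organoids, and *Alpi* lost its call in organoids against CAC RNF138fl/fl (0.103). Same-numbered libraries correlated at 0.23, 0.092 and 0.483 for colitis, at 0.028, 0.207 and 0.07 for CAC and at -0.181, -0.074 and 0.054 for the organoids, and not every library correlated best with its own number, so they share only a number. Few counts limit *Fabp1* and *Apoa1* throughout, *Sis* outside colitis and *Fabp2* in organoids.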

Other observations

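Other genes of nutrient handling were compared between CAC and colitis among libraries labelled RNF138-/- (edgeR, all 18 libraries), where 19.6% of all genes were called lower and 17.5% higher. Of 18 fat-handling genes tested, 6 were called lower and 3 higher. The sterol exporter genes *Abcg5* (1.98 to 19.1 CPM, log2 fold change 3.26) and *Abcg8* (2.03 to 16.6 CPM, 3.02) were higher in CAC, while *Tm6sf2* (18.7 to 2.04 CPM, -3.19) and the fatty acid transporter gene *Cd36* (41.4 to 7.48 CPM, -2.47) were lower. *Cd36* rested on colitis replicate 3, at 102 CPM against 9.28 and 13.01 CPM in the others, and without it was at -0.64 (adjusted p = 0.223). Without that library 5 fat-handling genes were called lower and 3 higher, *Abcg5* (3.82), *Abcg8* (3.58) and *Tm6sf2* (-3.60) among them. The share of all genes called in that fit is not given here. Of 22 brush border genes 10 were called lower, among them the amino acid transporter subunit gene *Slc3a1* (46.3 to 0.576 CPM), the meprin gene *Mep1a* (382 to 10.0 CPM) and *Naaladl1* (36.3 to 1.26 CPM), and 1 higher, the cubilin gene *Cubn* (2.23 to 36.9 CPM). These 4 were also called without colitis replicate 3, when 11 were called lower and 2 higher, again with no share of all genes given.

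Of 17 transcription factors of intestinal identity, 9 were called lower and 2 higher in the same comparison, beside the same 19.6% and 17.5% of all genes. The hindgut regulator *Cdx2* went from 215 to 8.45 CPM (-4.67) and the fatty acid sensor *Ppara* from 12.3 to 1.35 CPM (-3.18), while *Onecut2* went from 0.412 to 63.1 CPM (7.22) and *Gata5* from 2.58 to 39.7 CPM (3.94). Without colitis replicate 3 these were at -4.74, -2.63, 7.37 and 3.95, all still called by edgeR.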
